A study of Mus musculus with 18 samples.

Results

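The 106 genes described here are olfactory receptors that the array's annotation names Olfr547 to Olfr693, out of 19935 genes that had a probe set of their own. A gene was taken if its symbol was Olfr with a number in that range and no pseudogene ending, and it was read through the probe set that named it alone and had the highest mean over all embryos. Of the 147 numbers in the range, 41 had no probe set of their own, and 7 of those 41 were named only on probe sets shared with another receptor. All 106 genes carried the same symbol in the RefSeq annotation of GRCm38.p6, where all 106 lie on chromosome 7.

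Each array held the amplified cDNA of 1 mouse 2-cell embryo, the stage at which the mouse embryo begins its own transcription. Of the 18 embryos, 9 were Parg(110)-/+, with 1 Parg allele that lacks exons 2 and 3, and had been sired by 3 Parg(110)-/- males (PargA, PargB and PargC, 3 embryos each), while 9 were WT embryos of 3 wild-type males (WT1, WT2 and WT3, 3 embryos each). All mothers were wild-type, all matings were natural, and both groups shared the 129SVE (129S6/SvEvTac) strain, so that an embryo's own Parg allele and the sperm of a Parg(110)-/- father cannot be told apart. The product of Parg, poly(ADP-ribose) glycohydrolase, degrades poly(ADP-ribose), and the comparison asks whether disturbed poly(ADP-ribose) metabolism in the father goes along with altered transcript levels in his offspring.

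Olfactory receptors are G protein-coupled receptors of the nose, and a mature olfactory neuron transcribes 1 allele of 1 receptor gene and keeps all others silent in heterochromatin. Most of those numbered in this range belong to class I, the fish-like receptors, which lie together in a single cluster that also holds the beta-globin genes. In olfactory neurons the class I cluster depends on a long-range enhancer called the J element and on Bcl11b, the factor that sets the choice between class I and class II. Most of them are silent outside the nose.

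Windows around the annotated start, from 250 bases before it to 50 after it, were held by RefSeq (GRCm38.p6) for 90 of the 106 receptors. In 68 of those 90 windows the annotated start was an ATG, so most of these windows end inside the coding sequence and may lie downstream of the true transcription start. The 3 windows printed belong to the receptors that stood highest above their medians among those with a window, and those of Olfr649 and Olfr652 are set beside each other because both receptors were high in the same embryo. Capitals mark TAATTA, the core of homeodomain sites such as those of Lhx2, an activator of olfactory receptor genes. Olfr649 was read at chr7:104190156-104190455 on the minus strand, Olfr652 at chr7:104563902-104564201 on the plus strand and Olfr656 at chr7:104617407-104617706 on the plus strand.
Olfr649: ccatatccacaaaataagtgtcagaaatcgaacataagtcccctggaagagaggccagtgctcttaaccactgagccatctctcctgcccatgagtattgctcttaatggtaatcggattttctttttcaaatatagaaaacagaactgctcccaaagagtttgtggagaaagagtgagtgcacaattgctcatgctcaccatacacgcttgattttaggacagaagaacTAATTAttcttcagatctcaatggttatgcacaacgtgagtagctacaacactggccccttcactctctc
Olfr652: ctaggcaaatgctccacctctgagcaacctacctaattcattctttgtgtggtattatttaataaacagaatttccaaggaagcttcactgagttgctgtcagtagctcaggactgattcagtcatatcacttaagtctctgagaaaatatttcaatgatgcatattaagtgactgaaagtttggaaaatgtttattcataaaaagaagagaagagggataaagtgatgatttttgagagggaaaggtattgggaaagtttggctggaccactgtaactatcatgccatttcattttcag
Olfr656: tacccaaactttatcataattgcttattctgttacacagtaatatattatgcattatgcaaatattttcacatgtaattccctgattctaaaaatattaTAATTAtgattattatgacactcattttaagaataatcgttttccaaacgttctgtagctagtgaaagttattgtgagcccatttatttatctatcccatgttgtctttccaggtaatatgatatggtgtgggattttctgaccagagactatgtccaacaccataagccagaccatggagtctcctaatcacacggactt

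TAATTA, searched on both strands, stood in the windows of Olfr649 and Olfr656 and not in those of Olfr652 and Olfr597, while Olfr667 and Olfr684 were not among the 90. It was found in 14.4% of the 90 windows of Olfr547 to Olfr693, in 18.9% of 777 windows of the other olfactory receptors and in 5.29% of 32851 windows of all genes. TATAAA, on both strands, was found in 41.1%, 41.4% and 13.6% of these windows, and CCCNNGGG, the core of Ebf sites, in 3.33%, 2.96% and 13.7%. A window was counted once for each motif it held and may hold more than 1 motif. Neither TATAAA nor CCCNNGGG stood in the 4 windows of the high receptors. The median GC content was 37.3% for Olfr547 to Olfr693, 35.0% for the other olfactory receptors and 52.7% for all genes. The receptor windows were thus poorer in GC and held TATAAA more often than windows of all genes, with no test made.

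Most of the 106 receptors were flat across embryos. Their log2 levels averaged between 3.77 and 6.93, with a median of 5.21, and 102 of 106 lay below 6.47, the median of all probe set means. RMA levels carry no detection call, so that a level in this range says nothing of presence or absence, and because probes differ in affinity the order of levels between probe sets is not an order of transcript amounts. In 83 of 106 receptors all 18 values lay within 0.5 log2 of the receptor's median over the 18 embryos. The median SD of a receptor was 0.13 in Parg(110)-/+ and 0.13 in WT embryos. The SD was higher in Parg(110)-/+ than in WT embryos for 59 of 106 receptors (55.7%), against 481 of 909 other olfactory receptors (52.9%).

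What stood out were single receptors in single embryos. A value 1 log2 or more above the receptor's own 18-embryo median, which is a level at least 2-fold that median, occurred 8 times among 954 values in Parg(110)-/+ embryos (0.839%) and 0 times among 954 values in WT embryos. These 8 values belonged to 6 receptors (Olfr649, Olfr656, Olfr667, Olfr652, Olfr684 and Olfr597) and to 5 embryos from all 3 Parg(110)-/- fathers. Among the 909 other olfactory receptors, such values made up 0.758% of 8181 in Parg(110)-/+ embryos and 0.538% of 8181 in WT embryos. Over all probe sets the shares were 2.59% in Parg(110)-/+ embryos and 2.87% in WT embryos. The share of the 106 receptors in Parg(110)-/+ embryos was thus near that of the other olfactory receptors, and the difference of the genotypes in this count was not tested.

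Just below the threshold the counts were alike in both groups. Between 0.5 and 1 log2 above the median lay 10 values of the 106 receptors in Parg(110)-/+ embryos and 11 in WT embryos. From 1 up to 2 log2 there were 3 in Parg(110)-/+ and 0 in WT embryos, and at 2 log2 or more 5 in Parg(110)-/+ and 0 in WT embryos. The other olfactory receptors had 73 values in Parg(110)-/+ and 63 in WT embryos between 0.5 and 1 log2. They had 33 in Parg(110)-/+ and 23 in WT embryos from 1 up to 2 log2, and 29 in Parg(110)-/+ and 21 in WT embryos at 2 log2 or more. No value of the 106 receptors lay 1 log2 or more below its median in either group, where the lowest were -0.71 in a Parg(110)-/+ embryo and -0.57 in a WT embryo. Just inside the threshold lay Olfr597 in PargB-1 at 1.06, and just outside it Olfr610 in PargB-2 at 0.91 and Olfr642 in WT3-1 at 0.88, the highest value of a WT embryo.

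**Figure D1:**
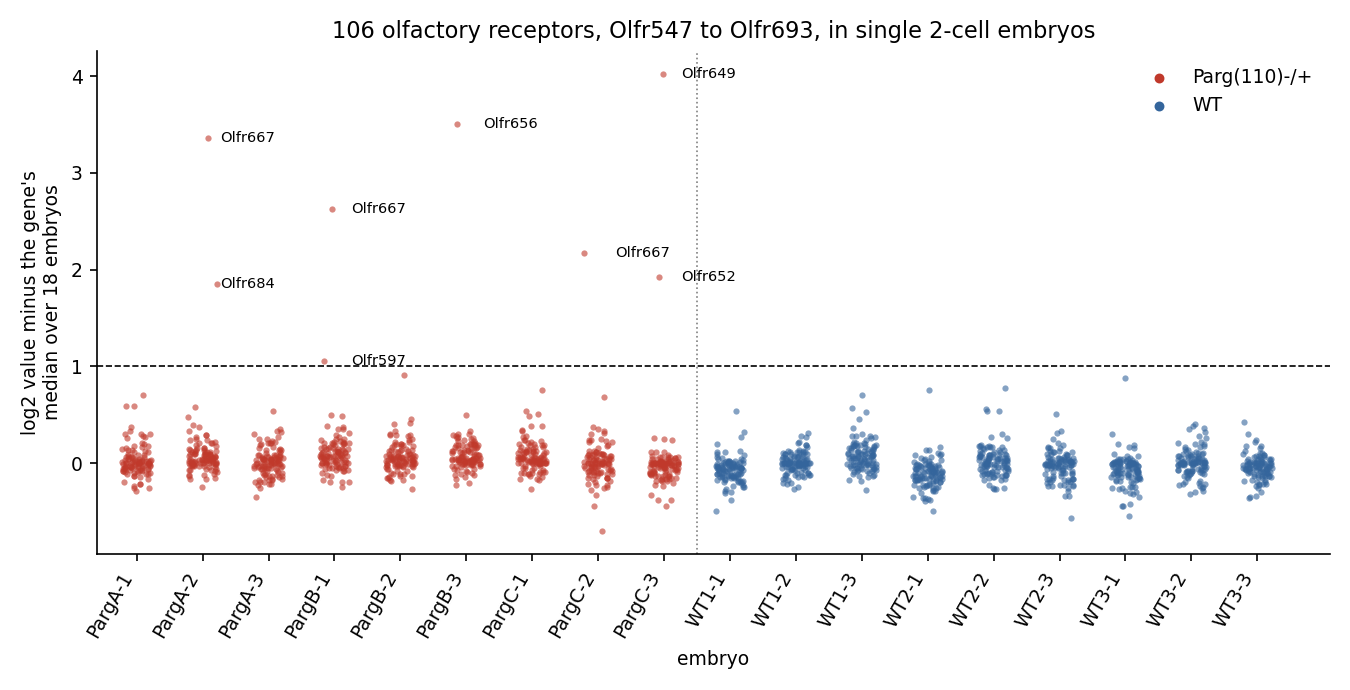
Each point is 1 of the 106 receptors in 1 embryo, and the vertical axis gives its log2 value minus the receptor's median over the 18 embryos. Parg(110)-/+ embryos (red) stand left of WT embryos (blue), the dashed line marks 1 log2, and the 8 named points above it all lie in Parg(110)-/+ embryos.

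Olfr649 stood highest above its own median. Its log2 level was 9.20 in PargC-3, while the 9 Parg(110)-/+ embryos had a lowest value of 4.99, a median of 5.16 and that highest value of 9.20, and the WT embryos 5.02, 5.19 and 5.74. PargC-3 thus stood alone at 16.3-fold the 18-embryo median, and the other 8 Parg(110)-/+ embryos overlapped the WT embryos. The other offspring of PargC had 5.16 and 5.17.

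Olfr656 was high in PargB-3 alone, at 10.08, which was 11.4-fold its 18-embryo median. Its lowest, median and highest levels were 6.18, 6.65 and 10.08 in Parg(110)-/+ embryos and 6.19, 6.43 and 6.67 in WT embryos. The other offspring of PargB had 6.60 and 6.69. Apart from PargB-3, the groups overlapped.

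Olfr667 was the one receptor above the threshold in more than 1 embryo. It reached 9.60 in PargA-2, 8.87 in PargB-1 and 8.41 in PargC-2, which is 1 of the 3 embryos of each Parg(110)-/- father and 10.3, 6.19 and 4.52 times its 18-embryo median. The lowest and the median of the Parg(110)-/+ embryos were 6.01 and 6.22, and the WT embryos had 5.92, 6.25 and 6.94 as lowest, median and highest. The 6 remaining Parg(110)-/+ embryos, between 6.01 and 6.25, lay within the range of the WT embryos. Such a pattern, a value above the threshold in at least 1 embryo of each Parg(110)-/- father and in 0 WT embryos, was met by 21 of 19935 genes and by 0 of the 909 other olfactory receptors, and the mirror pattern in WT fathers by 32 of 19935 genes. Exactly the same 3 embryos were above the threshold in 2 of 19935 genes, Olfr667 included. That set of 3 embryos was taken from the values of Olfr667 itself, so this count is a description and not a test.

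Olfr652 and Olfr684 were less high. Olfr652 reached 7.45 in PargC-3, the embryo in which Olfr649 was high, and its lowest, median and highest levels were 5.47, 5.60 and 7.45 in Parg(110)-/+ embryos and 5.28, 5.50 and 5.69 in WT embryos. Olfr684 reached 6.63 in PargA-2, the embryo with the highest Olfr667, and ran over 4.73, 4.86 and 6.63 in Parg(110)-/+ embryos and 4.56, 4.77 and 5.54 in WT embryos. These were 3.79-fold and 3.62-fold the 18-embryo medians. For Olfr684 the highest WT embryo, WT2-1, was itself 0.76 log2 above the median.

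Olfr597 was the weakest. It had 5.13 in PargB-1, where Olfr667 was also high, and 3.81, 3.92 and 5.13 as lowest, median and highest in Parg(110)-/+ embryos and 3.50, 4.12 and 4.35 in WT embryos. Its median was lower in Parg(110)-/+ than in WT embryos, although PargC-1, at 4.46, also lay above the highest WT embryo. An array reads the whole embryo, and RNA from 1 of its cells cannot be told apart from RNA of both.

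**Figure D2:**
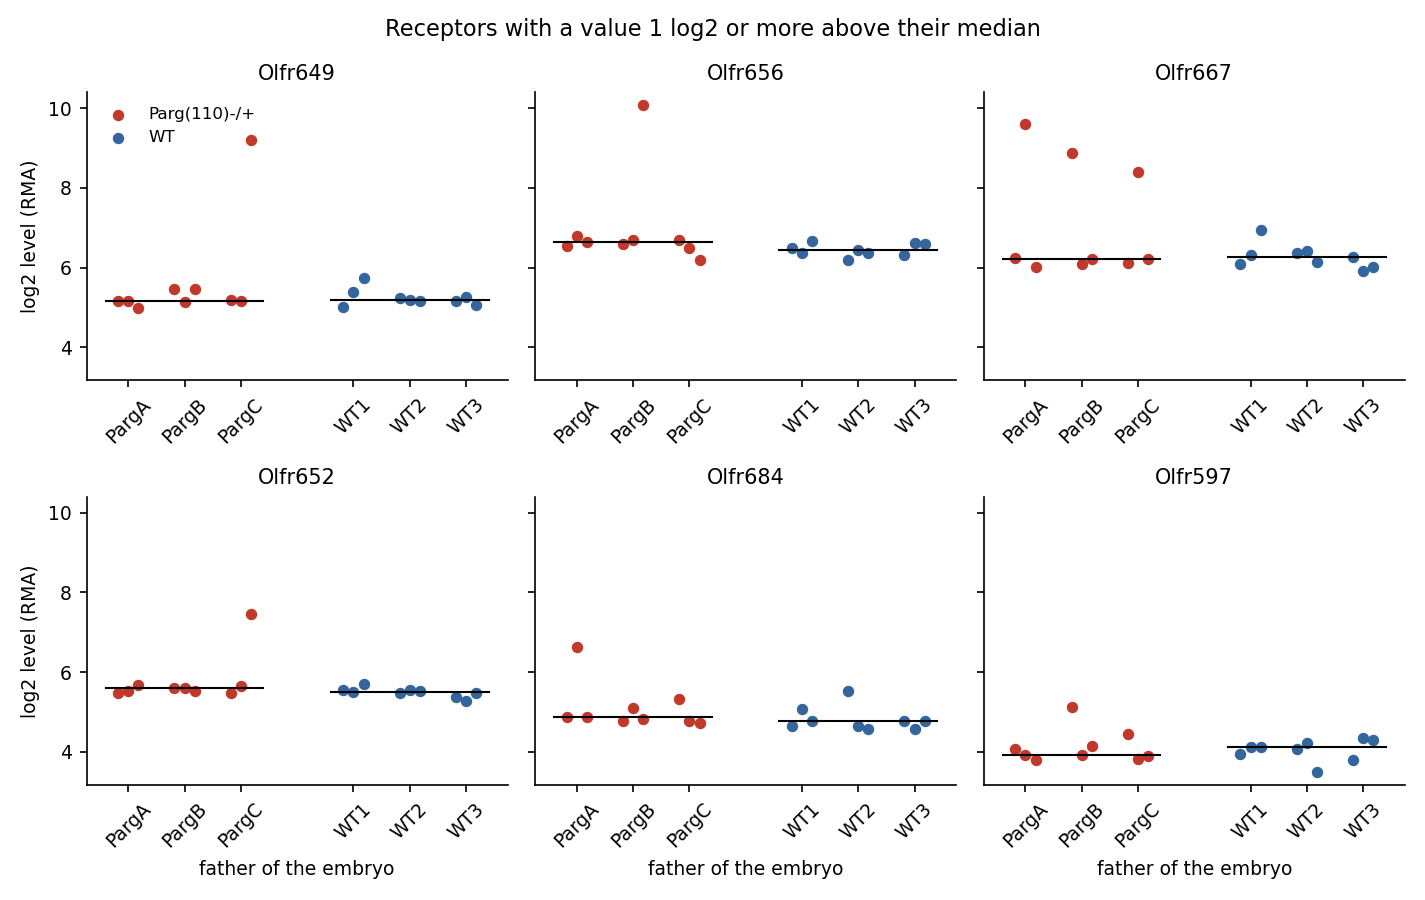
Log2 levels of the 6 receptors in each embryo, grouped by father, with offspring of Parg(110)-/- fathers (red) left of offspring of WT fathers (blue) and a line at the median of each group of 9. Olfr667 was high in 1 embryo of each Parg(110)-/- father (9.60, 8.87 and 8.41), the other 5 receptors in 1 embryo each, and heights should be read within a panel, since probe sets differ in affinity.

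Per embryo, receptors above the threshold numbered 2 in PargA-2, PargB-1 and PargC-3, 1 in PargB-3 and PargC-2, and 0 in the other 4 Parg(110)-/+ embryos and in all 9 WT embryos. These embryos did not stand out in the whole range of receptors, since the median deviation of the 106 receptors was between -0.02 and 0.07 log2 in Parg(110)-/+ embryos and between -0.11 and 0.06 in WT embryos. The other olfactory receptors above the threshold numbered 3 to 10 per Parg(110)-/+ embryo and 1 to 11 per WT embryo. All probe sets above it numbered 600 to 934 per Parg(110)-/+ embryo, with PargC-3 highest, and 638 to 1076 per WT embryo.

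Each Parg(110)-/+ embryo was also tested alone against all 9 WT embryos (limma, adjusted over all probe sets of that embryo, called at an adjusted p under 0.1), with the spread taken from the WT embryos. Of 954 pairs of receptor and embryo, 10 were called (1.05%) and all 10 were higher in the Parg(110)-/+ embryo. Over all probe sets 0.657% of 259335 pairs were called higher, and of the other olfactory receptors 73 of 8181 (0.892%), so that the share of the 106 receptors was somewhat above that of all probe sets and near that of the other olfactory receptors. With 1 WT embryo set against the other 8, 4 of 954 pairs were called (0.419%), all higher. Beside them stood 0.646% called higher over all probe sets and 48 of 8181 pairs (0.587%), all higher, of the other olfactory receptors. One embryo, PargB-1, had 625 calls over all probe sets, whereas the other 8 had 174 to 243, and PargB-1 held 1 of the 10.

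The strongest calls were those of 3 receptors in PargB-3 and PargC-3. Olfr656 in PargB-3 was 3.63 ± 0.17 log2 (SE) above the WT mean of 6.45 ± 0.16 (SD, n = 9), with a limma adjusted p = 3.86e-06. Olfr649 in PargC-3 was 3.95 ± 0.22 above 5.24 ± 0.21 (SD, n = 9; limma adjusted p = 1.85e-05). Olfr652 in PargC-3 was 1.96 ± 0.13 above 5.50 ± 0.12 (SD, n = 9; limma adjusted p = 9.29e-05). For these 3 receptors the excess was larger than the whole range of the WT embryos. Each of the 3 calls held in all alternatives run for it. For Olfr656 these include leaving out dim probe sets, a cut on a mean that counts PargB-3 itself.

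For Olfr667 the excess over the WT mean of 6.27 ± 0.30 (SD, n = 9) was 3.32 ± 0.30 in PargA-2, 2.60 ± 0.30 in PargB-1 and 2.14 ± 0.30 in PargC-2 (limma adjusted p = 7.26e-04, 0.00204 and 0.0116). The call in PargC-2 was lost without the offspring of father WT2 (adjusted p = 0.121), and over all alternatives its adjusted p ran between 8.86e-04 and 0.121. Olfr684 in PargA-2 was 1.81 ± 0.31 above 4.82 ± 0.31 (SD, n = 9; limma adjusted p = 0.0439), and 3 of 16 alternatives ended that call, with adjusted p between 0.00196 and 0.244. Olfr597 in PargB-1 was not called.

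The remaining 3 called pairs lay under the threshold of 1 log2. Olfr679 in PargA-1 was 0.82 ± 0.15 log2 higher than the WT mean of 4.93 ± 0.13 (SD, n = 9; limma adjusted p = 0.0580), Olfr570 in PargC-2 0.72 ± 0.14 higher than 4.66 ± 0.12 (adjusted p = 0.0736) and Olfr610 in PargB-2 0.90 ± 0.18 higher than 6.03 ± 0.17 (adjusted p = 0.0938). Of 16 alternatives each, 5, 8 and 12 ended these calls. On the side of the WT embryos, the 4 called pairs were Olfr642 in WT3-1 (0.88 ± 0.10 above the other 8, limma adjusted p = 0.00494), Olfr691 in WT2-2 (0.85 ± 0.14, adjusted p = 0.0522) and, named after their values were seen, Olfr592 in WT1-3 (0.56 ± 0.09, adjusted p = 0.0550) and Olfr632 in WT2-2 (0.59 ± 0.11, adjusted p = 0.0949). Small excesses of single receptors were thus called in WT embryos as well.

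Along chromosome 7 no receptor among the 3 nearest measured genes on either side of a high receptor was high in the same embryo. In the order of RefSeq, 249 genes lie from the first to the last of the 106 receptors, and 152 of them had their own probe set, of which 106 are the receptors described, 8 are other olfactory receptors and 38 are genes of other families. For each of the 8 high values, these nearest genes were read in the same embryo. Over all genes 2.18% of values in Parg(110)-/+ embryos reached 1 log2 above their own median, and of these 48 values 2 did. Neither was an olfactory receptor, since they were Usp17la (3.10), near Olfr667 in PargB-1, and Usp17ld (1.17), next to Olfr597 in the same embryo, both ubiquitin-specific proteases of a repeated family. Next to Olfr656 in PargB-3, Olfr655 was 0.06 and Olfr657 was 0.11 above the median. Next to Olfr649 in PargC-3, Olfr648 was 0.07 above and Trim6 was -0.56, that is, below its median. Olfr649 and Olfr652, both high in PargC-3, were separated by 8 measured genes, and Olfr651 and Olfr653 on either side of Olfr652 stood at -0.05 and -0.01.

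**Figure D3:**
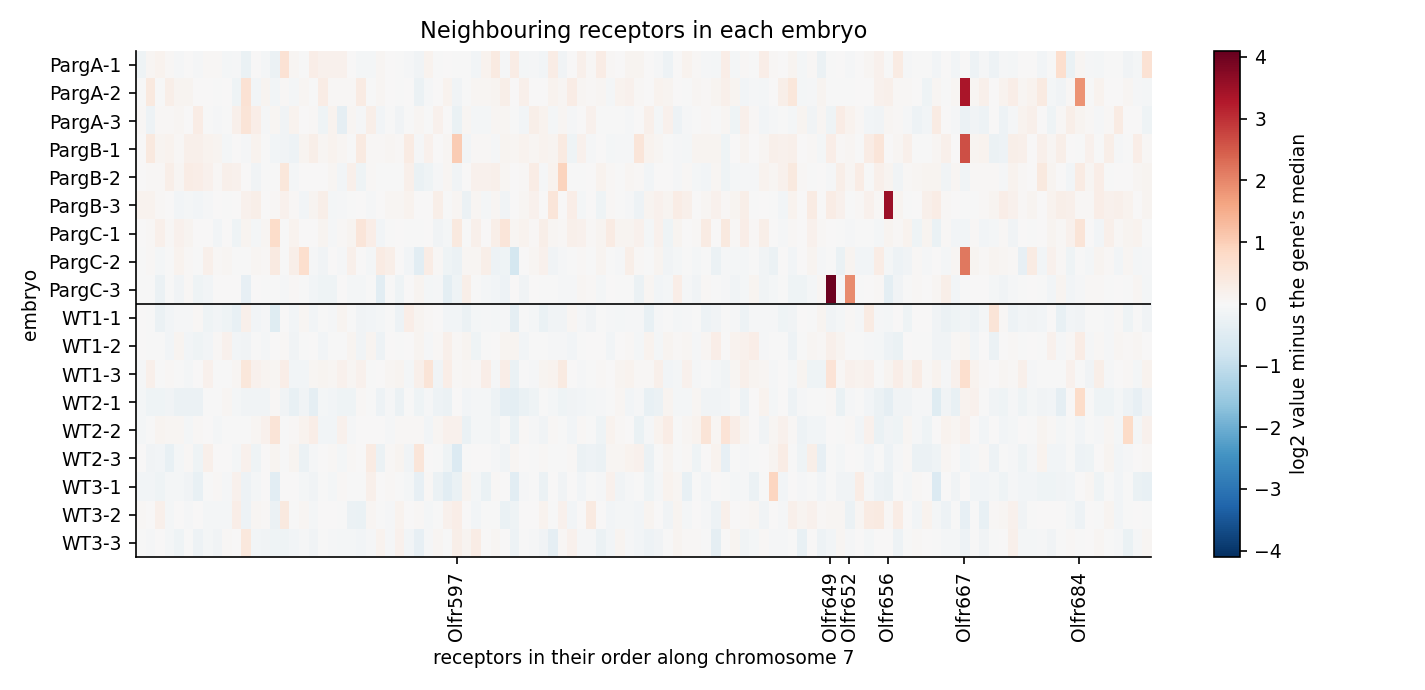
Rows are embryos, Parg(110)-/+ above WT, columns are the 106 receptors in their order along chromosome 7, and colour gives the log2 value minus the receptor's median. The 8 values of 1 log2 or more appear as isolated cells, with neighbouring receptors near 0, and only the Olfr667 column holds more than 1.

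Genes of other families in the same stretch also had high values in single embryos, and in both groups. Of the 38, 10 reached the threshold in at least 1 embryo, with 9 values in Parg(110)-/+ and 8 in WT embryos. Over all genes 21.1% reached it in at least 1 embryo. Such values made up 2.18% of all genes' values in Parg(110)-/+ and 2.4% in WT embryos. Trim30d, of a family of Trim genes that flanks the receptors, was 5.06 log2 above its median in PargB-3, the embryo in which Olfr656 was high, and Usp17la was 3.53 above in PargC-3. In WT embryos Cnga4, a subunit of the olfactory cyclic nucleotide-gated channel, was 2.63 above in WT2-3 and Usp17lc 2.54 above in WT2-2. The beta-globin genes Hbb-bh1 and Hbb-y, which lie inside the cluster, stayed within 0.41 and 0.26 log2 above their medians, and Hbb-bh2 was 0.57 above in PargB-1, where Olfr667 and Olfr597 were high.

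The list means of olfactory neuron markers overlapped between the groups. The 12 markers of mature olfactory neurons, all measured, had mean levels of 6.07 to 6.24 in Parg(110)-/+ embryos and 5.98 to 6.26 in WT embryos. Omp, the classical marker of mature olfactory neurons, ranged over 7.04 to 7.22 in Parg(110)-/+ and 6.76 to 7.23 in WT embryos, a difference of 0.19 ± 0.06 log2 (SE, limma unadjusted p = 0.00464, adjusted p = 0.362). Markers at or above 1 log2 over their median numbered 2 in Parg(110)-/+ embryos (Ric8b in PargB-2, 2.28, and Rtp2 in PargA-2, 1.21) and 4 in WT embryos (Ric8b and Cnga4, 2 embryos each). The 5 markers of immature olfactory neurons, all measured, had mean levels of 5.66 to 5.94 in Parg(110)-/+ embryos and 5.52 to 5.78 in WT embryos, with a higher mean in Parg(110)-/+ embryos for 5 of 5 (median difference 0.12 log2) and 0 called. Of these, Gng8, a G protein subunit, was 1.28 above its median in PargA-2. Rtp2, which helps receptors reach the cell surface, and Gng8 were thus above their medians in PargA-2, where Olfr667 and Olfr684 were high. In that embryo Rtp2 was the only 1 of the 12 mature markers above the threshold. In PargB-1, PargB-3, PargC-2 and PargC-3, which also held a high receptor, 0 of 12 were. The part of Rtp2 and Gng8 in that result was not tested. Markers of cumulus and oviduct cells (5 of 6 measured) had mean levels of 5.69 to 6.06 in Parg(110)-/+ and 5.53 to 5.84 in WT embryos, and those of spermatids and sperm (7 of 7) 5.97 to 6.15 in Parg(110)-/+ and 5.82 to 6.28 in WT embryos. The 8 measured of 11 markers of oocytes and 2-cell embryos had mean levels of 10.6 to 11.5 in Parg(110)-/+ embryos and 10.7 to 11.5 in WT embryos. Higher means in Parg(110)-/+ embryos were not particular to the immature neuron markers. They were found for 10 of 12 mature neuron, 4 of 5 cumulus and oviduct, 7 of 7 sperm and 5 of 8 oocyte markers. The median differences were 0.07, 0.13, 0.12 and 0.02 log2, beside 67.1% of all probe sets higher and 0.05 log2.

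Of 34 genes for receptor choice and olfactory signalling, all measured, 0 were called between the genotypes. At an unadjusted p under 0.05 there were 4 (11.8%, against 10.5% of all probe sets), 3 of them higher in Parg(110)-/+ embryos. The other was Ldb1, with the largest difference of the list, -0.71 ± 0.27 log2 (SE, limma unadjusted p = 0.016, adjusted p = 0.411). As deposited, 26 of 34 (76.5%) had a higher mean there, with a median difference of 0.07 log2, against 67.1% of all probe sets and 0.05 log2. Lhx2, an activator of receptor genes, ran over 6.53 to 7.08 in Parg(110)-/+ and 6.67 to 7.03 in WT embryos, and Bcl11b, which sets class I against class II, over 6.66 to 7.12 in Parg(110)-/+ and 6.65 to 6.99 in WT embryos. Over 34 genes in 9 embryos of each group, values 1 log2 or more above the median numbered 5 in Parg(110)-/+ and 4 in WT embryos. Over all probe sets such values made up 2.59% in Parg(110)-/+ and 2.87% in WT embryos. Kdm1a, the demethylase needed for receptor choice, reached 1.07 above its median in PargA-1. Emx2, a homeodomain activator, and Ddit3 reached 1.10 and 1.12 above in PargB-2. None of the 106 receptors was above the threshold in these 2 embryos. A probe set that names both Olfr681 and Olfr679 was 2.10 above its median in PargA-1. In the single embryo comparison 2 pairs of the 34-gene list were called higher in Parg(110)-/+ embryos and 2 in WT embryos. Over all probe sets 0.657% of pairs were called higher in Parg(110)-/+ and 0.646% in WT embryos.

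The genes whose pattern over the 18 embryos was most like that of a high receptor were sought by Pearson's r, as a description. For Olfr649 these were Mir124a-2 (r = 0.976), Mir99a (0.975) and Olfr775 (0.970), at 4.40, 3.71 and 4.88 log2 above their medians in PargC-3. For Olfr656 they were Mptx1 (0.981), Olfr827 (0.981) and Olfr815 (0.980), at 3.15, 2.66 and 4.20 above in PargB-3. Each of these 2 sets rests on 1 embryo. For Olfr667 they were Tcf7l1 (0.833), Nup210 (0.807) and Eci2 (0.789), at lower values of r. Eci2, an enzyme of fatty acid oxidation, was 1.86 above its median in PargB-1 and 1.19 above in PargA-2. Tcf7l1 reached only 0.70 in PargA-2 and 0.64 in PargB-1, with PargB-2 next, and Nup210 only 0.28 in PargA-2, 0.08 in PargC-2 and 0.07 in PargB-1.

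Averaged over 9 embryos, no receptor passed the test between the genotypes. The genotype comparison called 0 of the 106 receptors and 0% of all 28815 probe sets (limma, adjusted p under 0.1), with adjusted p between 0.362 and 0.999 for the receptors, and the same model without moderation of the variance also called 0. Embryos of 1 father are siblings, and the correlation of embryos within fathers was -0.02 over all probe sets. At an unadjusted p under 0.05 there were 11 receptors, all higher in Parg(110)-/+ embryos (10.4%), beside 8.96% of all probe sets higher at that p. The 9 values of each group overlapped in all 106 receptors, but only 3 of all 28815 probe sets had groups that did not overlap.

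As deposited, 92 of 106 receptors (86.8%) had a higher mean in Parg(110)-/+ embryos and the median difference was 0.07 log2, but with equal array medians these values were 59.4% and 0.01 log2, and with a second quantile normalization 64.2% and 0.02 log2. Over all probe sets 67.1% were higher as deposited, with a median difference of 0.05 log2, and 48.0% with equal array medians. The arrays of Parg(110)-/+ embryos had medians of 6.44 to 6.53, and those of WT embryos 6.34 to 6.49. Of the other olfactory receptors 77.8% were higher as deposited and 47.1% with equal array medians. Without the 6 receptors above the threshold, 86 of the other 100 were higher, with a median difference of 0.07 log2.

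The 5 receptors with the smallest p had small differences carried by most embryos. Olfr553 averaged 5.59 ± 0.11 in Parg(110)-/+ embryos and 5.43 ± 0.08 in WT embryos (SD, n = 9 each), a difference of 0.16 ± 0.05 log2 (SE, limma adjusted p = 0.362). Olfr676, Olfr607, Olfr551 and Olfr679 differed by 0.15 ± 0.05, 0.15 ± 0.05, 0.17 ± 0.05 and 0.27 ± 0.09 log2, with limma adjusted p of 0.362 for the first 3 and 0.375 for Olfr679. In each of the 5, at least 8 of 9 Parg(110)-/+ embryos lay above the WT mean. None had a value 1 log2 above its median in any embryo, and with equal array medians the differences of Olfr553, Olfr676 and Olfr607 were 0.11, 0.10 and 0.10.

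The 3 largest differences of means were reduced or lost without a single embryo. Olfr667 differed by 0.81 ± 0.47 log2, Olfr656 by 0.52 ± 0.38 and Olfr649 by 0.41 ± 0.43 (SE, limma adjusted p = 0.535, 0.617 and 0.726). For Olfr667 and Olfr649 only 3 of 9 Parg(110)-/+ embryos lay above the WT mean, whereas for Olfr656 8 of 9 did. Without PargC-3 the difference of Olfr649 was -0.03 log2, without PargA-2 that of Olfr667 was 0.50, and without PargB-3 that of Olfr656 was 0.13.

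**Figure D4:**
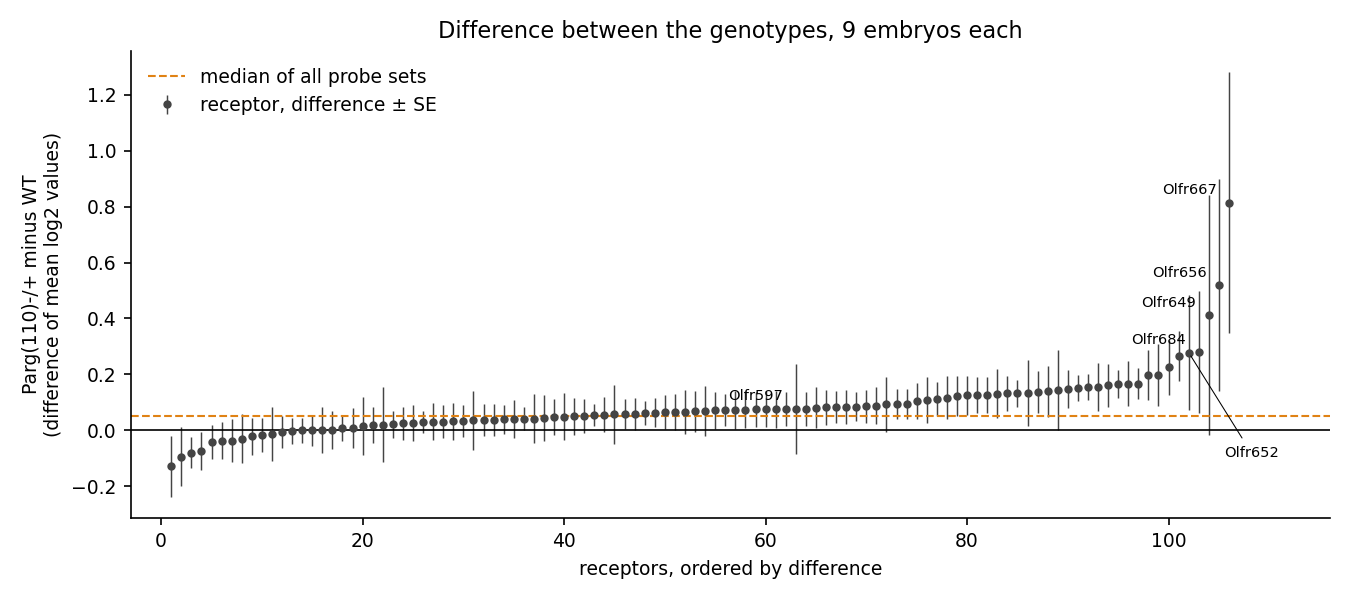
Difference of mean log2 values, Parg(110)-/+ minus WT, for each of the 106 receptors in rising order, with its standard error (9 embryos each), and the median of all probe sets as a dashed line at 0.05. The labelled receptors with a high value in single embryos hold the 5 largest differences and have wide errors, whereas Olfr597 lies in the middle.

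Father by father, the 3 offspring of 1 Parg(110)-/- male against the 9 WT embryos gave 0 called receptors for PargA, PargB and PargC, beside 0.0081% of 86445 tests over all probe sets (limma, adjusted p under 0.1). At an unadjusted p under 0.05 there were 8 receptors (7.55%) for PargA, 15 (14.2%) for PargB and 8 (7.55%) for PargC, against 5.32%, 12.8% and 7.24% of all probe sets, so that the shares lay near those of all probe sets. The smallest adjusted p of the receptors were 0.912, 0.232 and 0.607. The receptor with the smallest was Olfr607 in the offspring of PargB, at 0.23 ± 0.06 log2 (SE). Olfr656 was 1.34 ± 0.48 log2 higher in the offspring of PargB (adjusted p = 0.301) and Olfr649 1.27 ± 0.57 higher in those of PargC (adjusted p = 0.662), each through 1 embryo. Between the 3 fathers, limma's F test called 0 receptors (smallest adjusted p 0.849), and at an unadjusted p under 0.05 there were 2 (1.89%), against 5.82% of all probe sets.

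Olfr558, Olfr691 and Olfr692, named for known ligands or for tissues outside the main olfactory epithelium, showed no high value in a Parg(110)-/+ embryo. Olfr558, the mouse counterpart of human OR51E1, a receptor for short fatty acids, had 5.27, 5.46 and 5.66 as lowest, median and highest in Parg(110)-/+ embryos and 5.16, 5.44 and 5.71 in WT embryos. Olfr691, a receptor for fatty acids, ran from 4.85 to 5.14 in Parg(110)-/+ embryos and from 4.72 to 5.75 in WT embryos, where WT2-2 stood alone. Olfr692, which is also found in the vomeronasal organ, ran from 6.20 to 6.55 in Parg(110)-/+ embryos and from 5.92 to 6.37 in WT embryos. For all 3 the groups overlapped, with differences of 0.01 ± 0.07, 0.02 ± 0.10 and 0.13 ± 0.06 log2 (SE, n = 9 each, limma adjusted p = 0.971, 0.963 and 0.492). Olfr566, the receptor with the highest mean level, varied over 6.68 to 7.68 in Parg(110)-/+ embryos and 6.42 to 7.46 in WT embryos, with an SD of 0.31 in Parg(110)-/+ and 0.32 in WT embryos and no value above the threshold.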

How the data were processed

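Single 2-cell embryos were hybridized to Affymetrix Mouse Gene 1.0 ST arrays after amplification of their RNA (NuGen WT-Ovation One-Direct). The authors deposited log2 values computed by RMA in Partek (background correction, quantile normalization, log2 transformation, probe set summarization). Software versions are not given in the sources used here. RMA compresses differences of dim probe sets. Amplification of the RNA of 1 embryo can raise or lose single transcripts, and probe sequences and RNA sequencing were not analysed here, so cross-hybridization was not tested. The number of embryos limits the precision.

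The receptors and the gene lists were chosen with earlier results of these data known. Tests were two-sided limma 3.58.1 fits (lmFit, eBayes) in R 4.3.3 on all 28815 probe sets, Benjamini-Hochberg adjusted, with calls at an adjusted p under 0.1. The code was tested on simulated data. Values above a gene's median were counted without a test. Named receptors were the 10 highest values above the median, those high in 2 or more embryos, the 5 smallest p between the genotypes, the 3 highest means, those called in single embryos or families, and Olfr558, Olfr691 and Olfr692. Alternatives changed the threshold height, the reference median, the scaling, the variance model, the father as a block, dim probe sets, the probe set, and left out each embryo or father. Coordinates are those of the RefSeq windows (GRCm38.p6), and gene order comes from the same assembly.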

Additional observations from a re-analysis of the deposited data

Results flagged for a closer look

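Among 36 groups of 9 embryos (18 named receptors in both genotypes), 13 had a highest or lowest embryo whose gap to the nearest other embryo, as a share of the group's range, was above 0.493. Chance flags about 1 in 20 groups, and many of these receptors were named because of a high value. In Parg(110)-/+ embryos the shares were 0.901 for Olfr652 and 0.888 for Olfr649, both in PargC-3, 0.846 for Olfr656 in PargB-3, 0.709 for Olfr570 in PargC-2, 0.690 for Olfr684 in PargA-2, 0.565 for Olfr679 in PargA-1, 0.530 for Olfr610 in PargB-2 and 0.507 for Olfr597 in PargB-1. In WT embryos they were 0.802 for Olfr642 in WT3-1, 0.690 for Olfr691 in WT2-2, 0.515 for Olfr667 and 0.501 for Olfr649, both in WT1-3, and 0.581 for Olfr607 in WT2-1, which was the lowest of its group. Olfr667 in Parg(110)-/+ embryos was not among them, since 3 embryos were high together.

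A probe set outside the comparisons, because it names both Olfr681 and Olfr679, was 2.10 log2 above its median in PargA-1, at a level of 7.63, whereas the next Parg(110)-/+ embryo was 0.34 above and the highest WT embryo 0.87 above (WT levels 5.32 to 6.40). The probe set of Olfr679 alone was 0.70 above its median in the same embryo.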

How the results depend on the processing

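The count of 8 values in Parg(110)-/+ embryos stayed between 7 and 9 with a height of 0.8 or 1.5 log2, with other medians, with other scalings and with shared probe sets added, between 6 and 8 when single embryos were left out, and was 5 without father PargB and 5 without father PargC. Counted below the median it was 0. In WT embryos the count was 0 in all of these, except for 1 at a height of 0.8 log2. The 10 calls in single embryos were 6 without father WT1 and 6 without father WT3, and ran between 8 and 10 when single WT embryos were left out. They were 13 with a trended, robust variance model and 11 with a second quantile normalization, all 10 included in both, and 10 without moderation, of which 8 were shared. All 6 calls without WT1 or without WT3 were among the 10. With dim probe sets left out, 102 of 106 receptors lay below the cut, a mean of 6.47 over all embryos, and were not tested. The 4 calls left were those of Olfr656 and Olfr667, whose WT means of 6.45 and 6.27 lay below that cut. Since the mean that kept them includes their high embryos, this alternative is no independent check of these calls. The median difference of 0.069 log2 between the genotypes was 0.012 with equal array medians and 0.019 with a second quantile normalization, and ran between 0.055 and 0.080 without single embryos. No alternative called a receptor between the genotypes or by father. No paired analysis was possible because the embryos of the 2 genotypes share no replicate numbers. With 9 embryos per genotype, and with RMA compressing dim probe sets, small differences may have gone uncalled.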
